A study of Mus musculus with 16 samples.

Results

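Macrophages that were kept under an antibody against ITGAV, the αV integrin subunit, were compared between culture dishes coated with fibronectin and uncoated dishes. Fibronectin (10 µg/ml, left on the dishes overnight) is a matrix glycoprotein that macrophages bind through integrins. The cells were grown from marrow of the tibia of C57BL/6 mice, 2 to 3 months old, and matured in 15% serum with CSF-1, at 12 ng/ml for 24 h and then 120 ng/ml for 48 h. The adherent cells were passaged once onto coated or uncoated dishes, grown to confluence and kept for 24 h with the neutralizing antibody against ITGAV (10 µg/ml). The comparison took 8 of the 16 libraries of the study, 4 per coating, called here fibronectin libraries 1 to 4 and uncoated libraries 1 to 4. The other 8 libraries had IgG antibody (10 µg/ml) in place of anti-ITGAV on the same coatings. They entered the gene filter, the scaling, the estimate of the spread and the comparison of antibodies. The mice of all groups were wild-type. The labels do not say whether the libraries of a group came from separate cultures or mice, so the p-values measure the spread between these libraries, which may be technical.

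Integrins are pairs of an α and a β chain that join the matrix outside the cell to actin inside it, and their engagement activates focal adhesion kinase and the ERK kinases. The αV chain pairs with several β chains and binds fibronectin, vitronectin and osteopontin, while the α5β1 integrin is the classical fibronectin receptor and does not contain αV. Macrophages adjust chemokines, proteases, scavenger receptors and lipid export according to the surface they grow on.

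Fibronectin library 3 stood apart from the others, so results are given with it and without it. A pair of values given as without library 3 is the log2 change and its adjusted p in that fit. Its share of mitochondrial counts was 3.67%, where the other 15 libraries ranged from 1.30 to 1.60%. Its log CPM had a mean Pearson correlation of 0.965 to the remaining libraries, while each of those had 0.976 to 0.983. Genes rich in GC were lower in it than in the mean of all libraries (rho of -0.69 by Spearman, over genes and given as a description). The other fibronectin libraries had rho between -0.19 and 0.26, and uncoated libraries 1 to 4 had 0.50, 0.20, 0.38 and -0.22. Total counts of the 8 libraries lay between 28521819 and 39669522. Values are CPM, the counts scaled to the library total, and a count of 0 allows up to 0.0756 to 0.105 CPM (3 counts, counting error only). The macrophage label matched the markers: over the 8 libraries Lyz2 averaged 23852 CPM, Csf1r 2368 CPM and Adgre1 1537 CPM. In fibronectin library 3 the macrophage genes C1qa (455 CPM) and Spi1 (176 CPM) lay below, and Itgam (658 CPM) above, the other fibronectin libraries, which spanned 909.6 to 987, 318 to 347 and 325 to 353 CPM.

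On fibronectin, the chemokine genes Ccl2, Ccl7 and Ccl12, the cholesterol 25-hydroxylase gene Ch25h, the ephrin receptor gene Epha2 and Myc rose, and Cd4, Thbs1, Gprc5c and Clec10a fell, with library 3 and without it. With all libraries, 876 of 15469 tested genes (5.66%) passed edgeR's quasi-likelihood test at an adjusted p of 0.05, 439 higher (2.84%) and 437 lower (2.83%) on fibronectin. Without fibronectin library 3, 972 of 15765 tested genes (6.17%) passed, 479 higher (3.04%) and 493 lower (3.13%). The even split depended on the scaling in both fits. Upper-quartile factors gave 336 higher and 453 lower with all libraries, and 276 higher and 464 lower without library 3. In both fits 718 genes passed (4.65% of the 15457 genes tested in each), 343 higher (2.22%) and 375 lower (2.43%), and none changed direction. They were 82.0% of the calls with all libraries and 73.9% of the calls without library 3, and 691 of them were protein-coding. Most changes were small: 47 of these genes rose and 34 fell by at least 2-fold in both fits. The values of the 4 fibronectin and 4 uncoated libraries did not overlap for 697 of the 718 genes and for 2178 of all 15469 tested genes (14.1%). Below, the words rose and fell without a further remark mean that the gene passed in both fits. The median SE of a log2 change was 0.19 with all libraries and 0.17 without library 3. The count was lower when uncoated library 1 (530), 2 (428) or 3 (454) or fibronectin library 4 (578) was left out, and the 8 libraries fitted alone gave 251 calls, or 979 for the 7 without library 3. Called genes that were lower had a median transcript GC content of 52.7%, those that were higher 48.7%, and all tested genes 50.1%. With a GC offset for each library, 667 of the 718 genes (92.9%) passed in the same direction.

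Printed first are 3 genes that rose, with the promoter window of RefSeq's GRCm38.p6 table, 250 bases before to 50 bases after the start site: the named pair with the largest rise and the antibody's target. Capitals mark the cyclic AMP response element TGACGTCA and the GC box GGGCGG or its reverse complement, which a search of both strands found.
Ch25h, chr19:34475099-34475398, minus strand: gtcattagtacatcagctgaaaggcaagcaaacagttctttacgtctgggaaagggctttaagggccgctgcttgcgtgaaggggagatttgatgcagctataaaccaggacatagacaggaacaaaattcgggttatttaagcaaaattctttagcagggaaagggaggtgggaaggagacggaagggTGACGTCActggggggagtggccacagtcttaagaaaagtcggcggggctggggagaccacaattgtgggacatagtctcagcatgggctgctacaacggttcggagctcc
Epha2, chr4:141300971-141301270, plus strand: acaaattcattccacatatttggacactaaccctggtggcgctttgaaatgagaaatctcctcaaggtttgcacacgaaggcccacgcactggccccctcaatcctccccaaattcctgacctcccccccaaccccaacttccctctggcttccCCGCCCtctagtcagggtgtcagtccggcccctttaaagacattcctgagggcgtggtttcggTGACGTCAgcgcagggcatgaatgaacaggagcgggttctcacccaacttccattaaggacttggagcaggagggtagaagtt
Itgav, chr2:83724147-83724446, plus strand: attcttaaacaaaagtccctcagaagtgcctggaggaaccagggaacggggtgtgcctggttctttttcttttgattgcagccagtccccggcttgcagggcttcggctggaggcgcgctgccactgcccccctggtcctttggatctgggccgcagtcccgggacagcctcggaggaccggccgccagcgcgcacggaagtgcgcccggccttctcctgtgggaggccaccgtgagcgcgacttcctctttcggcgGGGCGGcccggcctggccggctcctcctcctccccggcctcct
The windows of Ch25h and Epha2 each held the palindrome TGACGTCA, which began 61 and 33 bases before the start site. It was in 1.79% of all 32851 promoters in the table, 2.97% of the 13150 promoters of tested genes, 2.27% of the 353 promoters of genes that rose and 2.59% of the 425 of genes that fell. The E-box CACGTG was in 14.7% of promoters of genes that rose, 10.1% of those that fell and 9.83% of all tested. The AP-1 motif TGANTCA was in 7.37%, 5.88% and 5.38%, and the ETS motif CCGGAAG in 10.2%, 10.6% and 17.1%, in the same order. The GC box was in 58.9%, 58.8% and 60.3%, the kappaB motif in 4.25%, 7.53% and 5.14%, and the CArG box in 1.42%, 0.941% and 1.20%. A match is a description of these letters, the motifs can overlap, and several promoters can belong to a single gene.

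Chemokine ligands, the secreted proteins that draw leukocytes, included 6 genes that rose. Of 20 tested ligands 6 rose and 2 fell, against 2.22% and 2.43% of all genes, and their median log2 change was 0.44 with all libraries and 0.27 without library 3 (0.01 in all genes in both fits). Ccl2 (chr11:82035571-82037453, plus strand), the monocyte attractant also called MCP-1, stood at 135, 133, 184 and 170.1 CPM in fibronectin libraries 1 to 4 and 40.5, 36.3, 37.5 and 31.7 CPM in uncoated libraries 1 to 4. Every fibronectin library lay above every uncoated library, and the log2 change was 2.09 ± 0.17 (SE, edgeR adjusted p = 5.52e-06) with all libraries and 2.00 ± 0.18 (adjusted p = 4.12e-05) without fibronectin library 3. Ccl7, a neighbour of Ccl2 that binds the same receptor CCR2, stood at 77.8, 79.7, 110.2 and 113 CPM on fibronectin and 25.1, 18.6, 24.9 and 14.7 CPM uncoated. The groups were again apart, with a log2 change of 2.19 ± 0.20 (adjusted p = 1.97e-05), and 2.12 ± 0.23 (adjusted p = 0.000221) without library 3. Ccl12, the third of this cluster on chromosome 11, stood at 8.83, 10.8, 25.2 and 16.6 CPM on fibronectin and 5.69, 4.93, 5.02 and 3.21 CPM uncoated. Library 3 was the highest of the fibronectin libraries, and the log2 change was 1.71 ± 0.26 (adjusted p = 0.00138) with it and 1.36 ± 0.20 (adjusted p = 0.000711) without it. Ccl4, which encodes the chemokine MIP-1β, rose by 0.89 ± 0.12 (adjusted p = 0.000374, or 0.93 and 0.000153 without library 3). Its neighbour Ccl3 (0.46, adjusted p = 0.0255, or 0.35 and 0.0384 without library 3) and Cxcl14 (0.68, adjusted p = 0.00552, or 0.75 and 0.00141 without library 3), both named after their values were seen, rose as well. Of the 2 ligands that fell, 1 was Ccl24, an eosinophil attractant of alternatively activated macrophages (-0.93 ± 0.17, adjusted p = 0.00412, or -0.90 and 0.00591 without library 3). The other was Pf4, a platelet chemokine, at 442, 448, 472 and 446 CPM on fibronectin and 693, 623, 629 and 595 CPM uncoated (-0.49 ± 0.09, adjusted p = 0.00361, or -0.51 and 0.00163 without library 3).

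**Figure D1:**
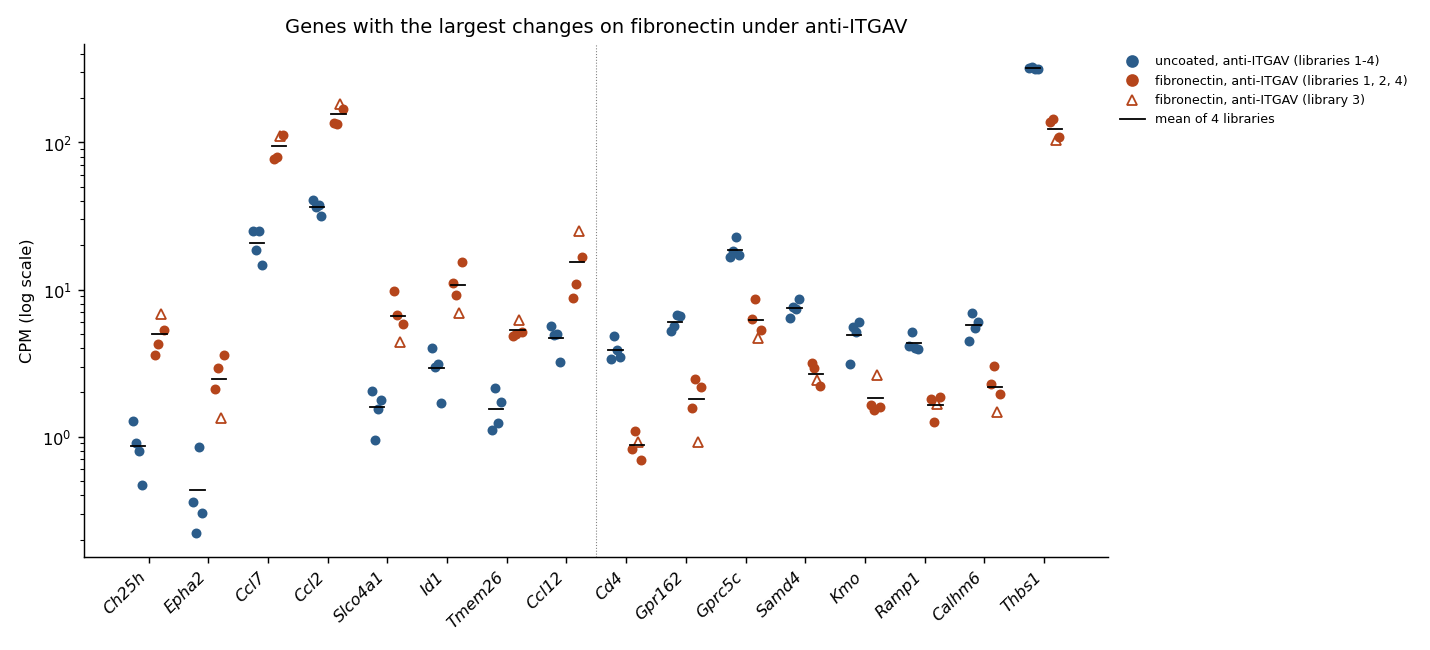
CPM on a log scale (y axis) of the 8 protein-coding genes with the largest rise (left of the dotted line) and the 8 with the largest fall on fibronectin, among those that averaged at least 1 CPM, in each of the 8 anti-ITGAV libraries; blue points are uncoated libraries, red points fibronectin libraries 1, 2 and 4, open triangles fibronectin library 3, and black bars the mean of 4 libraries. The genes were chosen among those called in both fits whose fibronectin and uncoated libraries do not overlap, so the separation was a condition of the choice. Ccl2 reads 133 to 184 CPM against 31.7 to 40.5 CPM.

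Ch25h, whose enzyme makes the oxysterol 25-hydroxycholesterol, had the largest rise of the named genes with all libraries, Epha2 had it without library 3, and 5 genes of the sterol-sensing LXR pathway fell. Ch25h stood at 3.60, 4.29, 6.78 and 5.27 CPM in fibronectin libraries 1 to 4 and 1.28, 0.911, 0.794 and 0.466 CPM in uncoated libraries 1 to 4. Its log2 change was 2.53 ± 0.27 (SE, edgeR adjusted p = 8.08e-05) with all libraries and 2.35 ± 0.27 (adjusted p = 7.59e-05) without fibronectin library 3, and the uncoated libraries all lay below all fibronectin libraries. Of the 13 tested genes of the oxysterol and LXR list 1 rose and 5 fell, against 2.22% and 2.43% of all genes. Their median was -0.38 (-0.35 without library 3). Apoe, the apolipoprotein that carries cholesterol out of macrophages, stood at 1861, 2036, 467 and 1703 CPM on fibronectin and 3175, 3211, 3377 and 2913 CPM uncoated. Library 3 was far below the rest, and the log2 change shrank from -1.06 ± 0.29 (adjusted p = 0.0374) to -0.76 ± 0.12 (adjusted p = 0.000758) without it. The call with all libraries ended without uncoated libraries 1, 2, 3 or 4 or fibronectin library 4 (adjusted p = 0.0512 to 0.0924). Abcg1, a cholesterol exporter, stood at 69.8, 81.7, 50.6 and 65.5 CPM on fibronectin and 102, 112, 121 and 104 CPM uncoated and fell by 0.71 on the log2 scale (adjusted p = 0.00484, 0.00326 without library 3). Mylip, which degrades the LDL receptor, fell as well (-0.41 ± 0.09, adjusted p = 0.00899, or -0.42 and 0.00558 without library 3). So did Pltp (-0.83, adjusted p = 0.0122, or -0.65 and 0.00683 without library 3) and Arl4c (-0.36, adjusted p = 0.0175, or -0.35 and 0.0145 without library 3), named after their values were seen. Abca1, the main exporter to apolipoprotein A1, passed only with library 3 (-0.74, adjusted p = 0.0289, against -0.66, adjusted p = 0.111).

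The integrin genes moved little as a group, but the target of the antibody was among those that rose. Of 18 tested subunit genes 2 rose and 0 fell, against 2.22% and 2.43% of all genes. Their median log2 change was 0.11 (0.12 without library 3). Itgav stood at 191, 159, 166 and 169.5 CPM in fibronectin libraries 1 to 4 and 82.00, 96.2, 88.5 and 116 CPM in uncoated libraries 1 to 4. The groups did not overlap and the log2 change was 0.84 ± 0.16 (SE, edgeR adjusted p = 0.00560) with all libraries and 0.86 ± 0.18 (adjusted p = 0.0133) without fibronectin library 3. Per length it was 15.7 ± 1.14 FPKM (SD, n = 4, the authors' values) on fibronectin and 8.78 ± 1.40 FPKM uncoated. Itgax, the αX chain of complement receptor 4, stood at 41.9, 49.8, 46.9 and 43.4 CPM on fibronectin and 22.2, 18.8, 22.8 and 20.7 CPM uncoated and rose by 1.11 ± 0.12 (edgeR adjusted p = 4.98e-05) with all libraries and 1.09 ± 0.11 (adjusted p = 4.12e-05) without fibronectin library 3. Itga5, the α chain of the fibronectin receptor, stood at 115, 129, 67.3 and 139 CPM on fibronectin and 102, 90.00, 88.4 and 76.1 CPM uncoated. Library 3 was the lowest of all 8, and the change of 0.33 ± 0.16 (adjusted p = 0.234) became 0.52 ± 0.10 (adjusted p = 0.00314) without it, where the groups were apart. Itga8, an RGD-binding α chain, passed only with library 3 (0.86 ± 0.20, adjusted p = 0.0173, against 0.0536 without it), and its call also ended without uncoated library 1 (adjusted p = 0.0591) or uncoated library 2 (adjusted p = 0.0614). Itga7 was tested only without library 3, where the filter was looser, and passed there (-3.03, adjusted p = 0.0425). It was at no more than 0.439 CPM in any library, and its fibronectin libraries, at 0 to 0.0554 CPM, lay below the counting floor.

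Itgb1, Itgb3 and Itgb5, which encode β chains that pair with αV, did not pass in either fit. Itgb1, the common β1 chain, stood at 870.1, 803, 969 and 784 CPM on fibronectin and 670.1, 768, 748 and 794 CPM uncoated, overlapping ranges with a change of 0.20 ± 0.11 (adjusted p = 0.271, 0.512 without library 3) that became -0.02 with a GC offset. Itgb3, the β3 chain of the vitronectin receptor, stood at 5.87, 4.80, 4.12 and 4.75 CPM on fibronectin and 8.58, 8.17, 7.61 and 7.13 CPM uncoated. Each fibronectin library lay below each uncoated library, with -0.69 ± 0.22 (adjusted p = 0.0812) and, without library 3, -0.61 ± 0.23 (adjusted p = 0.154). Itgb5, the β5 chain, stood at 308, 319, 199 and 325 CPM on fibronectin and 352, 324, 346 and 292 CPM uncoated, with library 3 apart from the others and a change of -0.19 ± 0.13 (adjusted p = 0.398), or -0.05 ± 0.09 (adjusted p = 0.828) without it. By the authors' FPKM, which compare genes per length, the 14 integrin genes above 1 FPKM stood on uncoated dishes, as means of 4 libraries, in the order Itgb2 (346), Itgb1 (179.9), Itgb5 (91.05), Itgam (66.6), Itga6 (42.5), Itgal (18.2), Itga5 (17.8), Itga4 (14.4), Itgav (8.78), Itgb7 (7.85), Itgax (4.33), Itga8 (2.31), Itga9 (2.20) and Itgb3 (1.31). Itgb6 was at 0 in all 8 libraries.

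**Figure D2:**
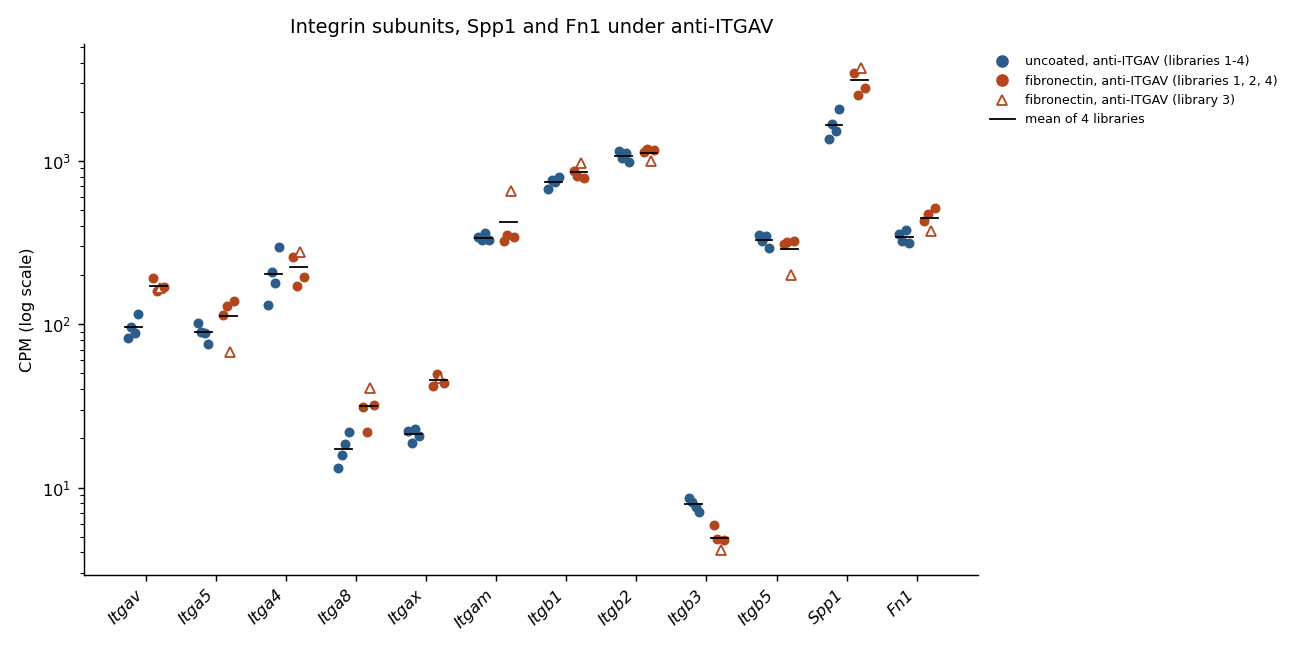
CPM on a log scale (y axis) of 10 integrin subunit genes, Spp1 and Fn1 in each anti-ITGAV library; blue points are uncoated libraries, red points fibronectin libraries 1, 2 and 4, open triangles fibronectin library 3, and black bars the mean of 4 libraries. Itgav, Itgax and Spp1 are higher in each fibronectin library than in any uncoated library, while Itga5, Itgam and Itgb5 of library 3 lie away from the other 3 fibronectin libraries.

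Of the matrix ligands, the osteopontin gene Spp1 rose and Thbs1, a thrombospondin gene, fell. Of 23 tested matrix genes 3 rose and 2 fell, against 2.22% and 2.43% of all genes. Their median log2 change was -0.30 (-0.18 without library 3). Spp1, which encodes osteopontin, a phosphoprotein that αV integrins bind, stood at 3435, 2535, 3704 and 2785 CPM in fibronectin libraries 1 to 4 and 1361, 1680.4, 1526 and 2075 CPM in uncoated libraries 1 to 4. The groups were apart, and the log2 change was 0.91 ± 0.17 (SE, edgeR adjusted p = 0.00584) with all libraries and 0.81 ± 0.19 (adjusted p = 0.0225) without fibronectin library 3. Fn1, the cells' own fibronectin gene, stood at 430.2, 476, 375 and 518 CPM on fibronectin and 355, 321, 378 and 313 CPM uncoated. Fibronectin library 3 overlapped the uncoated libraries, and Fn1 passed narrowly with all libraries (0.40 ± 0.11, adjusted p = 0.0492) and clearly without library 3 (0.47 ± 0.10, adjusted p = 0.00976). The first of these calls ended without uncoated libraries 1, 2, 3 or 4 or fibronectin libraries 1, 2 or 4 (adjusted p = 0.0653 to 0.145). Thbs1, a matricellular protein that binds CD36 and CD47, had the smallest adjusted p of all tested genes, at 139, 144, 103 and 109.6 CPM on fibronectin and 320.1, 325, 316 and 314 CPM uncoated. It fell by 1.36 on the log2 scale (adjusted p = 3.90e-06) and by 1.28 (adjusted p = 1.23e-06) without library 3. Cspg4, a membrane proteoglycan, rose (1.63 ± 0.34, adjusted p = 0.00976, or 1.84 and 0.00194 without library 3). Col1a2, a chain of type I collagen at 2.37 ± 0.585 CPM (SD, n = 4) on fibronectin against 4.72 ± 0.277 CPM uncoated, fell (-0.99 ± 0.19, adjusted p = 0.00501, or -1.11 and 0.00203 without library 3).

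Among focal adhesion and actin genes, that of focal adhesion kinase rose. Of 32 tested members 4 rose and 1 fell in both fits, against 2.22% and 2.43% of all genes, and 7 of 33 were higher without library 3, against 3.04%. Their median log2 change was 0.07 (0.13 without library 3). Ptk2, which encodes focal adhesion kinase, stood at 44.1, 41.00, 38.03 and 41.6 CPM on fibronectin and 26.6, 27.6, 28.4 and 23.99 CPM uncoated and rose by 0.63 ± 0.11 (edgeR adjusted p = 0.00381) with all libraries and 0.67 ± 0.11 (adjusted p = 0.00161) without fibronectin library 3. Tes, a zyxin partner, rose by 0.55 ± 0.12 (adjusted p = 0.0143), or 0.38 ± 0.08 (adjusted p = 0.00808) without library 3, its highest library at 94.1 CPM. Myo1e, an unconventional myosin at adhesions, rose by 0.39 ± 0.08 (adjusted p = 0.0122, or 0.37 and 0.00918 without library 3), a call that ended without uncoated library 2 (adjusted p = 0.0553). The vinculin gene Vcl passed only without library 3 (0.38, adjusted p = 0.0176) and is named after its value was seen. The member that fell, Myl9, a smooth-muscle myosin light chain, was close to the counting floor, at 0.0277, 0.0546, 0.135 and 0 CPM on fibronectin and 0.596, 0.314, 0.333 and 0.274 CPM uncoated, and its call ended without uncoated library 1 (adjusted p = 0.0681), fibronectin library 1 (adjusted p = 0.0636) or fibronectin library 4 (adjusted p = 0.0503).

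Myc, a growth-factor target, and 5 feedback genes of the ERK kinases rose. Of 17 tested feedback genes 5 rose and 0 fell, against 2.22% and 2.43% of all genes. Their median was 0.29 (0.31 without library 3). With all libraries 6 were higher and 1 lower, against 2.84% and 2.83% of all genes. Dusp4, a phosphatase that inactivates ERK in the nucleus, stood at 21.9, 23.5, 16.6 and 24.8 CPM on fibronectin and 10.9, 8.08, 11.7 and 7.10 CPM uncoated and rose by 1.20 ± 0.18 (edgeR adjusted p = 0.00119) with all libraries and 1.31 ± 0.17 (adjusted p = 0.000248) without fibronectin library 3. Dusp6, its cytoplasmic counterpart, stood at 134, 129.8, 138 and 147 CPM on fibronectin and 98.9, 82.9, 92.3 and 59.00 CPM uncoated, with no overlap, and rose by 0.72 ± 0.12 (adjusted p = 0.00293, or 0.72 and 0.00252 without library 3). The inhibitor Spred2 (0.66 ± 0.11, adjusted p = 0.00252, or 0.63 and 0.00222 without library 3) and the ETS factor Etv5 (0.67 ± 0.13, adjusted p = 0.00596, or 0.69 and 0.00547 without library 3) rose by like amounts. Spry2, named after its value was seen, rose too (0.58, adjusted p = 0.0127, or 0.54 and 0.0185 without library 3). Of 24 immediate early genes 2 rose and 2 fell, against 2.22% and 2.43% of all genes. Their median was 0.00 (0.03 without library 3). With all libraries 3 were lower, against 2.83% of all genes. Without library 3, 5 were higher, against 3.04% of all genes. Jun (adjusted p = 0.0426), Egr2 (adjusted p = 0.0266) and Klf2 (adjusted p = 0.0298), named after their values were seen, passed only there. Myc stood at 24.3, 23.5, 20.4 and 31.1 CPM on fibronectin and 10.6, 7.73, 9.76 and 7.21 CPM uncoated, and no fibronectin library overlapped the uncoated ones (1.49 ± 0.20, adjusted p = 0.000418, or 1.57 and 0.000319 without library 3). Fos rose by 0.47 ± 0.11 (adjusted p = 0.0178, or 0.44 and 0.0214 without library 3), a call that ended without uncoated library 2 (adjusted p = 0.0577), uncoated library 3 (adjusted p = 0.0643) or uncoated library 4 (adjusted p = 0.0515). The antiproliferative Btg2 fell (-0.47 ± 0.11, adjusted p = 0.0146, or -0.46 and 0.0139 without library 3), except without uncoated library 3 (adjusted p = 0.0593) or fibronectin library 4 (adjusted p = 0.0558). Zfp36, which destabilizes cytokine mRNAs, fell (-0.39 ± 0.10, adjusted p = 0.0290, or -0.29 and 0.0248 without library 3), except without uncoated libraries 1, 2 or 3 or fibronectin library 1 (adjusted p = 0.0538 to 0.0986).

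In the urokinase system, which turns plasminogen into plasmin at the cell surface, the genes of the protease and its receptor rose. Of 11 tested members 0 fell, against 2.43% of all genes, and the median was 0.10 (0.16 without library 3). Plau, the urokinase gene, stood at 303, 348, 365 and 408 CPM in fibronectin libraries 1 to 4 and 173, 115, 155 and 114 CPM in uncoated libraries 1 to 4. Its log2 change was 1.36 ± 0.16 (SE, edgeR adjusted p = 0.000123) with all libraries and 1.34 ± 0.18 (adjusted p = 0.000648) without fibronectin library 3. Plaur, the receptor, stood at 34.2, 41.2, 25.6 and 42.6 CPM on fibronectin and 22.3, 20.3, 18.8 and 15.4 CPM uncoated, with library 3 the lowest on fibronectin, and rose by 0.90 ± 0.14 (adjusted p = 0.00164) with it and 1.03 ± 0.11 (adjusted p = 4.12e-05) without it. Of 17 tested metalloproteinases and inhibitors 2 rose and 1 fell, against 2.22% and 2.43% of all genes. Mmp12, the macrophage elastase, stood at 727, 658, 896 and 560.5 CPM on fibronectin and 262, 319, 271 and 388 CPM uncoated and rose by 1.20 ± 0.18 (edgeR adjusted p = 0.00123) with all libraries and 1.07 ± 0.19 (adjusted p = 0.00508) without fibronectin library 3. Mmp13, a collagenase, rose by 0.84 ± 0.20 (adjusted p = 0.0188, or 0.75 and 0.0483 without library 3) except without uncoated library 1 (adjusted p = 0.0634) or uncoated library 3 (adjusted p = 0.0693). Mmp19 fell by 0.38 (adjusted p = 0.0295, or -0.38 and 0.0235 without library 3) except without uncoated libraries 1, 2 or 3 or fibronectin libraries 1 or 4 (adjusted p = 0.0624 to 0.0980). The membrane protease gene Adam8 passed only without library 3 (0.51 ± 0.09, adjusted p = 0.00284, against 0.170 with it).

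Id1 and Id2, classical BMP targets that encode inhibitors of basic helix-loop-helix factors, rose. Of 13 tested genes of the BMP list 3 rose and 0 fell, against 2.22% and 2.43% of all genes. Their median was 0.19 (0.14 without library 3). Id1 stood at 11.2, 9.23, 6.97 and 15.5 CPM on fibronectin and 3.99, 2.99, 3.12 and 1.70 CPM uncoated and rose by 1.86 ± 0.30 (edgeR adjusted p = 0.00188) with all libraries and 2.02 ± 0.30 (adjusted p = 0.00120) without fibronectin library 3. Id2 stood at 62.2, 60.1, 90.2 and 72.5 CPM on fibronectin and 35.5, 35.1, 35.3 and 36.96 CPM uncoated, with close agreement of the uncoated libraries, and rose by 1.00 ± 0.15 (adjusted p = 0.000950, or 0.86 and 0.000675 without library 3). Id3 passed only without library 3 (0.68 ± 0.13, adjusted p = 0.00527, against 0.0790 with it). Smad6, which inhibits BMP signalling, rose by 1.18 ± 0.30 (adjusted p = 0.0310) with all libraries and 1.44 ± 0.22 (adjusted p = 0.000810) without library 3. The first of these calls ended without uncoated libraries 1, 3 or 4 or fibronectin libraries 2 or 4 (adjusted p = 0.0558 to 0.103).

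Among inflammatory genes, the changes went both ways. Of 25 tested TNF, IL-1 and NF-kB targets 3 rose and 2 fell, against 2.22% and 2.43% of all genes. Their median was -0.06 (-0.05 without library 3). Without library 3, Cd83 (adjusted p = 0.0157) and Ccrl2 (adjusted p = 0.0203), named after their values were seen, also passed as lower. Tnf stood at 10.96, 10.5, 8.75 and 11.5 CPM on fibronectin and 8.07, 6.28, 4.87 and 4.63 CPM uncoated and rose by 0.81 ± 0.16 (adjusted p = 0.00631, or 0.89 and 0.00234 without library 3). Tnfaip3, the NF-kB inhibitor A20, rose by 0.61 ± 0.11 (adjusted p = 0.00421, or 0.65 and 0.00184 without library 3), and Il1rn, the IL-1 receptor antagonist, by 0.98 ± 0.17 (adjusted p = 0.00352, or 0.73 and 0.00160 without library 3). Tnfaip2 fell by 0.58 (adjusted p = 0.0157, or -0.45 and 0.0132 without library 3), except without uncoated library 1 (adjusted p = 0.0505) or uncoated library 2 (adjusted p = 0.0540), and Birc3, named after its value was seen, fell as well (-0.50, adjusted p = 0.0127, or -0.49 and 0.0141 without library 3). None of 32 tested type I interferon response genes passed in either fit, and their median was -0.02 (-0.09 without library 3).

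Cyclin D1, both E cyclins and 4 replication genes rose. Of 28 tested members 7 rose and 0 fell, against 2.22% and 2.43% of all genes, and 8 rose without library 3, against 3.04%. The median log2 change was 0.18 (0.25 without library 3). Ccnd1, the G1 cyclin D1, stood at 337, 365, 388 and 439 CPM in fibronectin libraries 1 to 4 and 198, 162, 174 and 127 CPM in uncoated libraries 1 to 4. No library of either group came near the other group, and the log2 change was 1.21 ± 0.13 (SE, edgeR adjusted p = 8.92e-05) with all libraries and 1.20 ± 0.14 (adjusted p = 0.000177) without fibronectin library 3. Ccne1 rose by 0.66 ± 0.12 (adjusted p = 0.00517, or 0.58 and 0.00604 without library 3). Ccne2 rose by 1.31 ± 0.26 (adjusted p = 0.00704), with library 3 at 49.1 CPM and the other fibronectin libraries at 20.4 to 25.6 CPM, and by 0.97 ± 0.22 (adjusted p = 0.0166) without it. Mcm4 (0.35, adjusted p = 0.0326, or 0.36 and 0.0186 without library 3), Pcna (0.46, adjusted p = 0.0444, or 0.26 and 0.0440 without library 3) and Rrm2 (0.43, adjusted p = 0.0236, or 0.31 and 0.0259 without library 3), named after their values were seen, rose. Mcm6, a subunit of the replicative helicase, rose by 0.43 ± 0.08 (adjusted p = 0.00652, or 0.38 and 0.00538 without library 3), at 261 ± 18.01 CPM (SD, n = 4) on fibronectin against 194 ± 11.7 CPM uncoated.

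The calls among glycolysis and hypoxia genes depended on library 3. Of 29 tested members 2 rose and 0 fell in both fits, against 2.22% and 2.43% of all genes. Without library 3, 7 were higher and 1 lower, against 3.04% and 3.13%, and the median was 0.20 in place of 0.13. Slc2a1, the glucose transporter GLUT1, stood at 64.5, 71.5, 38.4 and 73.04 CPM on fibronectin and 50.3, 38.5, 41.8 and 34.9 CPM uncoated. Library 3 lay among the uncoated libraries, and the log2 change was 0.58 ± 0.16 (adjusted p = 0.0408) with it and 0.75 ± 0.10 (adjusted p = 0.000329) without it. The first of these calls ended without uncoated libraries 2, 3 or 4 or fibronectin libraries 1, 2 or 4 (adjusted p = 0.0833 to 0.123). Hk2, a hexokinase (0.47 ± 0.09, adjusted p = 0.00348), Slc16a3, a lactate exporter (0.48 ± 0.12, adjusted p = 0.0221), and P4ha2, a collagen prolyl hydroxylase (0.49 ± 0.12, adjusted p = 0.0224), passed only without library 3. With it their adjusted p was 0.0502, 0.531 and 0.134. None of 25 nuclear oxidative phosphorylation genes, 27 ribosomal protein genes or 12 mitochondrial transcripts passed in either fit, although the median of the mitochondrial transcripts was 0.50 with library 3 and -0.03 without it.

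**Figure D3:**
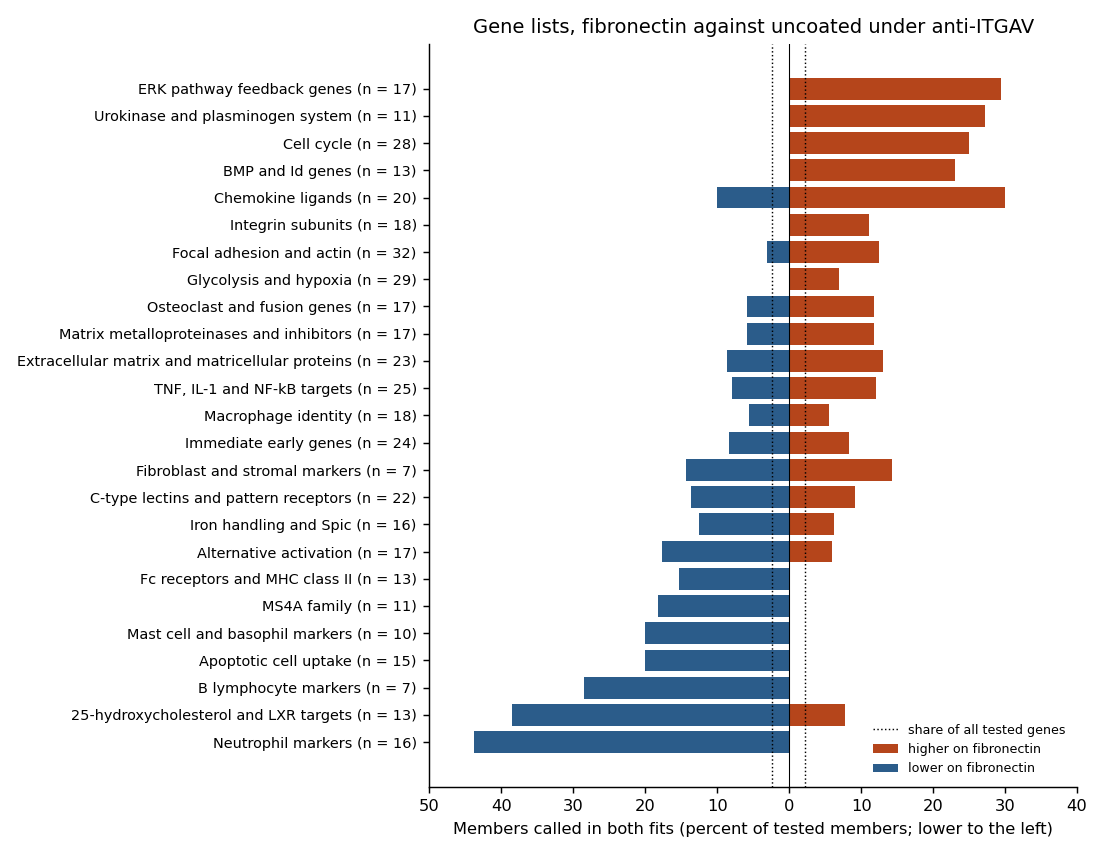
Percent of the tested members of each of 25 gene lists (x axis; number tested in brackets) that passed the test in both fits, higher on fibronectin to the right in red and lower to the left in blue; dotted lines mark the 2.22% and 2.43% of all tested genes. ERK feedback, urokinase, cell cycle and chemokine genes lie mostly to the right, and neutrophil markers, LXR targets and B lymphocyte markers mostly to the left.

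Among genes of alternatively activated and resident macrophages, Clec10a, Mgl2, Ccl24 and Mertk fell and Arg1 and Cx3cr1 rose. The shares to set beside each list here are the 2.22% of all genes that rose and the 2.43% that fell. Of 17 tested alternative activation genes 1 rose and 3 fell, with a median of -0.12 (-0.17 without library 3). Clec10a, the galactose lectin MGL1, stood at 21.1, 24.8, 17.6 and 22.1 CPM on fibronectin and 42.1, 41.1, 43.2 and 43.5 CPM uncoated and fell by 0.99 (adjusted p = 0.000231, 0.000170 without library 3). Its relative Mgl2, named after its value was seen, fell as well (-1.10, adjusted p = 0.0235, or -1.06 and 0.0406 without library 3). Arg1, arginase 1, stood at 167, 201, 260.1 and 247 CPM on fibronectin and 97.7, 88.99, 115 and 90.5 CPM uncoated and rose by 1.16 ± 0.16 (edgeR adjusted p = 0.000638) with all libraries and 1.06 ± 0.17 (adjusted p = 0.00229) without fibronectin library 3. Tgm2, a transglutaminase, passed only without library 3 (0.38 ± 0.10, adjusted p = 0.0363, against 0.431 with it). Of 18 macrophage identity genes 1 rose and 1 fell: Cx3cr1, the fractalkine receptor (0.83 ± 0.15, adjusted p = 0.00340, or 0.76 and 0.00439 without library 3), and Mertk, a receptor for dying cells (-0.38 ± 0.08, adjusted p = 0.0121, or -0.38 and 0.00853 without library 3). Of 15 genes of apoptotic cell uptake 0 rose and 3 fell: Mertk, its bridging ligand Gas6 (-0.52 ± 0.14, adjusted p = 0.0401, or -0.36 and 0.0208 without library 3) and the scavenger receptor Stab2 (-0.90 ± 0.18, adjusted p = 0.00676, or -0.81 and 0.0118 without library 3). The Gas6 call ended without uncoated libraries 1, 2 or 3 or fibronectin library 4 (adjusted p = 0.0630 to 0.103), and library 3, at 585 CPM, was far below the 966 to 1051 CPM of the other fibronectin libraries.

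Receptor families of the macrophage surface fell in part, and several of these calls appeared only without library 3. The MS4A genes lie together on chromosome 19. Of the family's 11 tested members, 2 fell in both fits and 5 without library 3, against 2.43% and 3.13% of all genes. The median was -0.35 with it and -0.58 without it. Ms4a7 (-0.58 ± 0.09, adjusted p = 0.000924 without library 3) and Ms4a4a (-1.32 ± 0.24, adjusted p = 0.00505) passed in both fits, and the Ms4a7 call with all libraries (-0.48 ± 0.11, adjusted p = 0.0143) ended without uncoated library 2 (adjusted p = 0.0518) or fibronectin library 4 (adjusted p = 0.0577). Ms4a6d stood at 237, 239.9, 379 and 239 CPM on fibronectin and 280.1, 311, 311 and 289 CPM uncoated. Fibronectin libraries 1, 2 and 4 agreed closely below the uncoated range and library 3 lay above it, so that the adjusted p went from 0.573 to 0.00396 without that library, and Ms4a6b followed the same course (0.180 to 0.00437). Of 22 C-type lectins and pattern receptors 2 rose and 3 fell, against 2.22% and 2.43% of all genes. Without library 3, 6 fell, against 3.13%. Clec4n, dectin-2, stood at 82.9, 84.2, 132 and 79.5 CPM on fibronectin and 137, 138, 135 and 124 CPM uncoated and fell by 0.49 (adjusted p = 0.0315) with library 3 and by 0.70 (adjusted p = 3.27e-05) without it. The first of these calls ended without uncoated libraries 1, 2 or 3 or fibronectin libraries 1, 2 or 4 (adjusted p = 0.0718 to 0.0977). Its neighbour Clec4a1 passed only without library 3 (-0.61 ± 0.09, adjusted p = 0.000593, against 0.246 with it). Tlr9, the receptor for unmethylated DNA, stood at 15.1, 20.3, 10.3 and 14.98 CPM on fibronectin and 31.7, 32.4, 32.6 and 32.4 CPM uncoated and fell by 1.09 (adjusted p = 0.00297, or -0.94 and 0.00326 without library 3). Clec4e (0.90, adjusted p = 0.0146, or 0.65 and 0.0281 without library 3) and Clec5a (1.17, adjusted p = 0.0124, or 0.85 and 0.0408 without library 3), named after their values were seen, rose.

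Of 13 Fc receptor and MHC class II genes 0 rose and 2 fell, against 2.22% and 2.43% of all genes. These shares also stand beside the other lists of this paragraph. Fcgr2b, the inhibitory Fc receptor, stood at 179, 197, 208 and 174 CPM on fibronectin and 251, 295, 288 and 279.6 CPM uncoated and fell by 0.55 (adjusted p = 0.00153, 0.000282 without library 3). Fcgr3, an activating receptor, fell by 0.35 (adjusted p = 0.0491, or -0.42 and 0.00875 without library 3), a call that ended without uncoated libraries 1, 2 or 3 or fibronectin libraries 1, 2 or 4 (adjusted p = 0.0782 to 0.143). Fcgr4 passed only without library 3 (-0.41 ± 0.10, adjusted p = 0.0158, against 0.107 with it). Of 16 iron genes 1 rose and 2 fell. Spic, the factor of iron-recycling macrophages, stood at 0.471, 0.983, 1.88 and 1.28 CPM on fibronectin and 2.53, 2.92, 2.89 and 2.91 CPM uncoated and fell by 1.28 (adjusted p = 0.0199), or 1.64 (adjusted p = 0.00287) without library 3. The first of these calls ended without uncoated library 2 (adjusted p = 0.0553) or uncoated library 3 (adjusted p = 0.0535). Hmox1, heme oxygenase 1, rose by 0.41 ± 0.10 (adjusted p = 0.0261, or 0.47 and 0.00784 without library 3), except without uncoated libraries 2, 3 or 4 or fibronectin library 4 (adjusted p = 0.0586 to 0.0840), and Trf, transferrin, passed only without library 3 (-0.84 ± 0.14, adjusted p = 0.00142, against 0.0899 with it). Of 17 osteoclast and fusion genes 2 rose and 1 fell. Tnfrsf11a, the receptor RANK, rose by 0.38 ± 0.08 (adjusted p = 0.00787, or 0.40 and 0.00223 without library 3), and the tetraspanin Cd9 by 0.63 ± 0.14 (adjusted p = 0.0128), or 0.43 ± 0.09 (adjusted p = 0.00875) without library 3. Nfatc1, the master factor of osteoclasts, fell by 0.34 (adjusted p = 0.0187, or -0.33 and 0.0140 without library 3), except without uncoated libraries 2 or 3 or fibronectin libraries 1 or 4 (adjusted p = 0.0513 to 0.0813).

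Each of the lists that follow had at most 2 genes that passed in both fits in a direction, against 2.22% of all genes higher and 2.43% lower. Of 16 lipid uptake genes 1 rose, the scavenger receptor Msr1, at 800.3, 595, 1221 and 764 CPM on fibronectin and 386, 424, 399.8 and 504 CPM uncoated (0.98 ± 0.20, adjusted p = 0.00742, or 0.75 ± 0.18, adjusted p = 0.0222, without library 3). Of 29 sterol and fatty acid synthesis genes 2 rose, Sqle (0.37, adjusted p = 0.0226, or 0.31 and 0.0256 without library 3) and Hsd17b7 (0.71, adjusted p = 0.00908, or 0.56 and 0.0126 without library 3). Of 13 heat shock genes 2 rose, the chaperones Hsph1 (0.35, adjusted p = 0.0334, or 0.35 and 0.0260 without library 3) and Hspd1 (0.48, adjusted p = 0.0260, or 0.42 and 0.0391 without library 3), and Hsp90aa1 passed only with library 3 (adjusted p = 0.0191 with it and 0.0869 without it). Of 20 TGF-beta genes 1 fell, the receptor gene Tgfbr2 (-0.31, adjusted p = 0.0381, or -0.36 and 0.00808 without library 3). Of 26 lysosome genes 1 fell, Hexa (-0.44, adjusted p = 0.0183, or -0.37 and 0.0246 without library 3), and of 16 genes of the unfolded protein response 1 fell, the sensor Ern1 (-0.25, adjusted p = 0.0366, or -0.23 and 0.0236 without library 3). None of 20 ATF4 targets and none of 14 growth and angiogenic factors passed in both fits. The genes of this paragraph other than Msr1 were named after their values were seen.

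Cd4 had the largest fall among protein-coding genes called in both fits, with at least 1 CPM on average and no overlap. It encodes the T helper cell co-receptor that some macrophages also carry. It stood at 0.830, 1.09, 0.915 and 0.694 CPM in fibronectin libraries 1 to 4 and 3.40, 4.81, 3.89 and 3.45 CPM in uncoated libraries 1 to 4, and its log2 change was -2.13 ± 0.20 (SE, edgeR adjusted p = 1.97e-05) with all libraries and -2.14 ± 0.23 (adjusted p = 4.12e-05) without fibronectin library 3. The T cell genes Cd3e and Trac were at 0 in all 8 libraries, and Cd3d and Cd3g did not exceed 0.164 CPM. Gpr162, an orphan receptor whose gene ends 708 bases before Cd4 on the same strand of chromosome 6, stood at 1.58, 2.48, 0.915 and 2.18 CPM on fibronectin and 5.21, 5.66, 6.71 and 6.61 CPM uncoated and fell by 1.76 (adjusted p = 0.00194, 0.00187 without library 3). Gprc5c, an orphan receptor, stood at 6.34, 8.57, 4.71 and 5.27 CPM on fibronectin and 16.6, 18.4, 22.7 and 17.2 CPM uncoated (-1.59 ± 0.20, adjusted p = 0.000247, or -1.47 and 0.000315 without library 3). Samd4, an RNA-binding repressor, stood at 2.69 ± 0.438 CPM (SD, n = 4) on fibronectin against 7.49 ± 0.905 CPM uncoated (-1.48 ± 0.19, adjusted p = 0.000279, or -1.43 and 0.000436 without library 3). Kmo, an enzyme of tryptophan breakdown, stood at 1.84 ± 0.514 CPM (SD, n = 4) on fibronectin against 4.95 ± 1.26 CPM uncoated (-1.42 ± 0.23, adjusted p = 0.00209, or -1.64 and 0.000487 without library 3). Ramp1, a subunit of the CGRP receptor, fell by 1.39 (adjusted p = 0.0100, or -1.40 and 0.0144 without library 3), and Calhm6, of the calcium homeostasis modulator family, by 1.38 (adjusted p = 0.00189, or -1.23 and 0.00234 without library 3). The calls of 2 low genes were less stable: Epha8 (-1.29 ± 0.35, adjusted p = 0.0381, or -0.99 and 0.0460 without library 3) lost its call without uncoated libraries 1, 3 or 4 or fibronectin library 1 (adjusted p = 0.0667 to 0.105), and 0610040J01Rik (-1.31 ± 0.35, adjusted p = 0.0350, or -1.54 and 0.0213 without library 3) without uncoated libraries 1, 2, 3 or 4 or fibronectin libraries 1, 2 or 4 (adjusted p = 0.0608 to 0.0945).

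Beyond the chemokines and Ch25h, the largest rises by the same rule included Epha2 and a set of receptors and transporters. Epha2, an ephrin-A receptor kinase, stood at 2.10, 2.92, 1.35 and 3.57 CPM in fibronectin libraries 1 to 4 and 0.357, 0.220, 0.845 and 0.302 CPM in uncoated libraries 1 to 4. Its log2 change was 2.49 ± 0.39 (SE, edgeR adjusted p = 0.00171) with all libraries and 2.69 ± 0.37 (adjusted p = 0.000382) without fibronectin library 3, and library 3 was the lowest on fibronectin but above every uncoated library. Of 8 tested genes of a list of ephrin receptors and ephrins it alone passed, and Epha8, which is not in that list, fell. Slco4a1, an organic anion transporter, stood at 9.71, 6.69, 4.39 and 5.83 CPM on fibronectin and 2.06, 0.943, 1.54 and 1.78 CPM uncoated (2.07 ± 0.28, adjusted p = 0.000433, or 2.23 and 0.000111 without library 3). Tmem26, a membrane protein, stood at 4.87, 4.995, 6.19 and 5.17 CPM on fibronectin and 1.10, 2.14, 1.23 and 1.73 CPM uncoated (1.78 ± 0.22, adjusted p = 0.000231, or 1.70 and 0.000319 without library 3). Htr2a, a serotonin receptor, rose by 1.54 ± 0.33 (adjusted p = 0.0114, or 1.41 and 0.0212 without library 3). P2ry10b rose by 1.46 ± 0.29 (adjusted p = 0.00710, or 1.16 and 0.0242 without library 3), but it has a close copy, P2ry10, beside it on the X chromosome, so its counts are uncertain.

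Several markers of other blood cells fell. The shares to set beside each list of this paragraph are the 2.22% of all genes that rose and the 2.43% that fell. In bulk RNA, fewer cells of a type and less RNA per cell cannot be told apart. Of 16 neutrophil markers 0 rose and 7 fell, with a median of -0.50 (-0.62 without library 3). Their summed level was 415.5 to 463.8 CPM uncoated, 278.6 to 310.2 CPM in fibronectin libraries 1, 2 and 4, and 435.6 CPM in library 3. S100a8, a calprotectin subunit, stood at 47.99, 43.9, 141 and 42.8 CPM on fibronectin and 66.4, 77.9, 69.6 and 65.5 CPM uncoated. Library 3 lay above and the others below the uncoated range, so that the adjusted p was 0.974 with it and 0.000689 without it, and Ngp behaved alike (0.138 and 0.000675). Csf3r, the G-CSF receptor, fell with it and without it (-0.79 ± 0.13, adjusted p = 0.00208, or -0.68 and 0.00130 without library 3). Ltf (-0.55 ± 0.11, adjusted p = 0.00719, or -0.54 and 0.00744 without library 3) and Camp (-0.82 ± 0.19, adjusted p = 0.0146, or -0.68 and 0.0254 without library 3), granule protein genes chosen after their values were seen, fell, Camp except without uncoated library 1 (adjusted p = 0.0512). S100a9 fell by 0.44 (adjusted p = 0.0275, or -0.55 and 0.00194 without library 3), except without uncoated libraries 2 or 3 or fibronectin libraries 1, 2 or 4 (adjusted p = 0.0556 to 0.105). Of 10 mast cell and basophil markers 0 rose and 2 fell, and their sum was 26.6 to 33.2 CPM uncoated and 13.1 to 17.9 CPM on fibronectin. Prss34, a basophil protease, stood at 5.56, 5.38, 4.66 and 4.89 CPM on fibronectin and 16.8, 12.1, 11.1 and 11.3 CPM uncoated (-1.32 ± 0.16, adjusted p = 0.000231, or -1.28 and 0.000315 without library 3). Hdc, which makes histamine, fell by 0.92 (adjusted p = 0.0342, or -0.95 and 0.0433 without library 3), except without uncoated libraries 1, 2 or 3 or fibronectin libraries 1 or 4 (adjusted p = 0.0515 to 0.105), and Mcpt8 passed only without library 3 (-1.08 ± 0.20, adjusted p = 0.00272, against 0.0778 with it). Of 7 B lymphocyte markers 0 rose and 2 fell, with sums of 75.3 to 86.8 CPM uncoated and 36.9 to 43.0 CPM on fibronectin. Ighm, the IgM heavy chain, stood at 31.99, 33.6, 33.6 and 26.7 CPM on fibronectin and 68.7, 73.3, 72.2 and 64.3 CPM uncoated (-1.14 ± 0.13, adjusted p = 0.000109, or -1.18 and 7.27e-05 without library 3). Cd79a, near 1 CPM or below, fell by 1.52 (adjusted p = 0.0128, or -1.52 and 0.0298 without library 3), except without uncoated library 2 (adjusted p = 0.0560). Of 7 fibroblast markers 1 rose, the podoplanin gene Pdpn (0.93 ± 0.15, adjusted p = 0.00189, or 0.86 and 0.00196 without library 3), which macrophages can also express, and 1 fell, Col1a2. Of 8 monocyte markers 1 rose, Fn1, and of 4 megakaryocyte markers 1 fell, Pf4. Of 3 eosinophil markers 1 fell, Prg2 (-1.94, adjusted p = 0.0129, or -1.83 and 0.0259 without library 3). The median of the list was 0.29 (0.17 without library 3). None of 9 dendritic cell markers or 2 erythroid markers passed. Of 5 endothelial markers 1 rose, Kdr. The T and NK cell markers summed to 0.312 to 0.901 CPM on fibronectin and 0.503 to 0.877 CPM uncoated. The part of such cells in the changes of other genes was not tested. Lcn2, counted among both the iron genes and the neutrophil markers, fell with the latter (-0.58 ± 0.11, adjusted p = 0.00484, or -0.57 and 0.00437 without library 3).

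Genes that passed in only 1 of the fits followed the position of library 3. Of the 158 genes called only with all libraries, library 3 lay farther in the direction of the change than the other 3 fibronectin libraries in 134 (84.8%), against 43.0% of all 15457 genes. Of 254 genes called only without it, 252 had been tested in both fits, and library 3 lay on the near side of the other 3 in 217 (86.1%), against 34.5% of all genes. These shares follow from the way the genes were chosen. Among the 1128 genes called in either fit and tested in both, 2 had opposite signs in the fits. Zfp930, a zinc finger gene, is an example of the former, with 4.48, 3.58, 11.5 and 4.20 CPM on fibronectin and 2.53, 1.85, 2.51 and 3.65 CPM uncoated and an adjusted p of 0.0442 with library 3 and 0.140 without it. Hells, a chromatin remodeller of dividing cells, stood at 42.7, 26.2, 64.00 and 33.8 CPM on fibronectin and 13.7, 15.6, 15.03 and 21.9 CPM uncoated, with an adjusted p of 0.0130 and 0.0659. The other genes called only with library 3 that had the largest changes were Atf7ip2 (1.37) and D330045A20Rik (1.13) among the higher and Tst (-1.07), Gbgt1 (-1.01), Zbtb16 (-1.003) and Adam19 (-0.96) among the lower. Of these 8 genes, all but Hells also lost the call without uncoated library 3 (adjusted p = 0.0691 to 0.141). Tnfrsf12a, the receptor of TWEAK, is an example of the latter, with 4.37, 4.07, 1.70 and 4.79 CPM on fibronectin and 2.26, 2.48, 2.25 and 2.25 CPM uncoated and an adjusted p of 0.105 with library 3 and 0.00194 without it. Rnf183 (1.30), Prag1 (0.97) and Trmt61a (0.93) passed as higher, and Gbp8 (-1.55), Gpr34 (-1.05) and Rapsn (-0.86) as lower, only in the fit without that library.

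**Figure D4:**
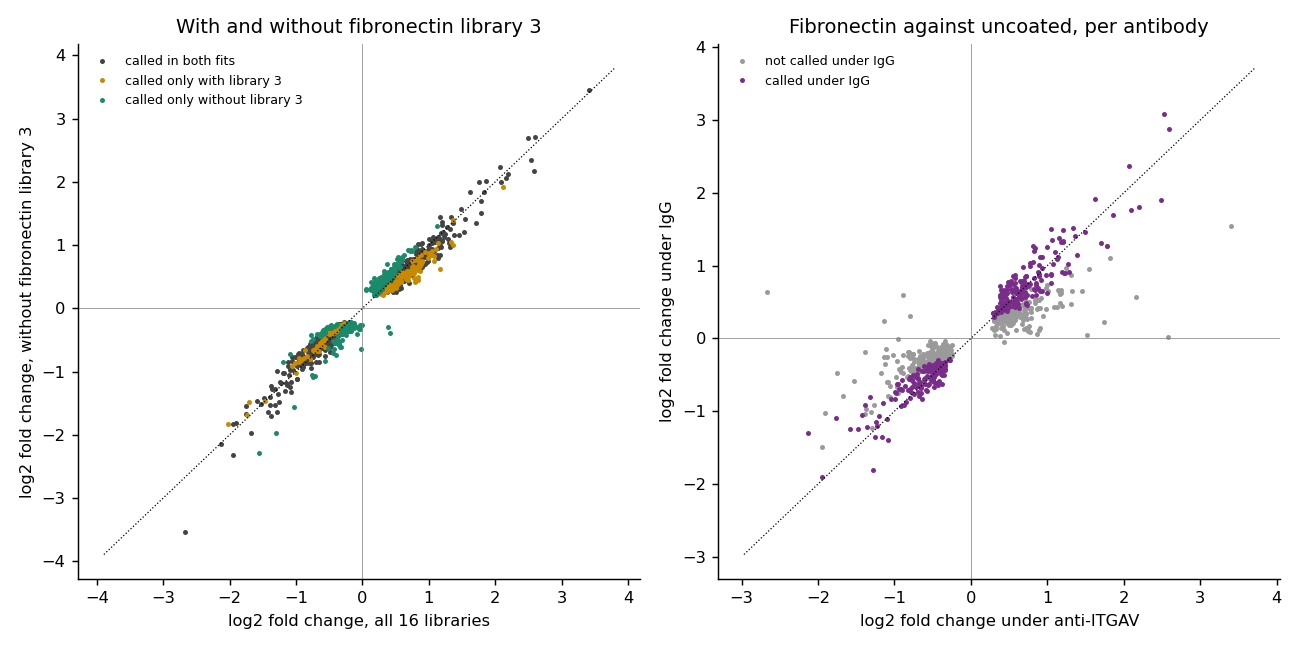
Left, log2 change on fibronectin under anti-ITGAV with all 16 libraries in the fit (x axis) and without fibronectin library 3 (y axis), for genes that passed in either fit, coloured by the fit they passed in. Right, for the 718 genes that passed in both, the log2 change under anti-ITGAV (x axis) and under IgG (y axis), purple where the gene also passed under IgG; the dotted line marks equal values, and 713 of the 718 points have the same sign under both antibodies.

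The same coating difference was measured under IgG, in 8 other libraries that share none with the anti-ITGAV comparison. Under IgG 586 of 15469 genes passed (3.79%), or 1325 of 15765 (8.4%) when fibronectin library 3 under anti-ITGAV was left out of the common estimate of the spread. Of the 718 genes of the anti-ITGAV comparison, 713 (99.3%) had the same sign under IgG, against 57.6% of all tested genes. Of the 718, 313 (43.6%) passed under IgG in the same direction with all libraries and 478 (66.6%) without that library, and 0 passed in the opposite direction. The 330 genes called under both antibodies were 37.7% of the calls under anti-ITGAV and 56.3% of those under IgG. Across the 718 genes Pearson's r of the log2 changes was 0.90, and across all tested genes 0.32, given as a description since genes are not independent.

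No gene passed the test of the difference between antibodies. The coating by antibody interaction gave 0 calls (0.0%) in 15469 genes by edgeR, with a smallest adjusted p of 0.646 (0.845 without library 3), 614 genes at an unadjusted p under 0.05 (471 without library 3), and 1 call by DESeq2. The median SE of the interaction was 0.26 (0.23 without library 3), larger than that of the coating difference, so smaller differences between antibodies were not detectable at this replication. For Ccl2 the IgG libraries stood at 155, 93.3, 129 and 187 CPM on fibronectin and 37.3, 44.1, 42.3 and 42.7 CPM uncoated, and the interaction was 0.33 ± 0.23 (adjusted p = 0.646). For Cd4 they stood at 1.55, 1.88, 1.61 and 1.19 CPM on fibronectin and 4.39, 3.86, 3.74 and 3.35 CPM uncoated, with an interaction of -0.83 ± 0.28 (adjusted p = 0.646). For Itgav they stood at 178, 102, 121 and 176 CPM on fibronectin and 104, 105, 110.1 and 83.2 CPM uncoated, with an interaction of 0.32 ± 0.23 (adjusted p = 0.646). Epha2 and Spp1 had interactions of 0.58 ± 0.53 and 0.26 ± 0.24 (adjusted p = 0.655 and 0.661). The smallest p-values of the interaction belonged to Gm10076, a lincRNA in the deposited annotation, and to Lars2 with all libraries and Myl9 without library 3. Gm10076 stood at 14.1, 13.5, 13.6 and 11.3 CPM on fibronectin and 35.3, 18.5, 19.5 and 23.9 CPM uncoated under anti-ITGAV and 19.2, 27.8, 16.7 and 17.4 CPM on fibronectin and 13.1, 12.01, 16.03 and 12.4 CPM uncoated under IgG, an interaction of -1.49 ± 0.28. Lars2, the mitochondrial leucyl-tRNA synthetase, stood at 783, 688, 652 and 995 CPM on fibronectin and 1133, 918, 1182 and 869 CPM uncoated under anti-ITGAV and 986, 988, 1209 and 1028 CPM on fibronectin and 764, 833, 562 and 677 CPM uncoated under IgG, an interaction of -0.97 ± 0.21. Lars2 was lower on fibronectin in the means under anti-ITGAV and higher under IgG. CT010467.1, an rRNA gene in the annotation chosen after its values were seen, had the same order, with 2209, 1675, 1116 and 2080.1 CPM on fibronectin and 3219.9, 3281, 3551 and 2266 CPM uncoated under anti-ITGAV and 2320.2, 3031, 2896 and 2302 CPM on fibronectin and 2511, 2087, 2087 and 1811 CPM uncoated under IgG. Under anti-ITGAV, CT010467.1 fell by 0.80 (adjusted p = 0.0173, or -0.63 and 0.0283 without library 3), except without uncoated library 2 (adjusted p = 0.0565) or uncoated library 3 (adjusted p = 0.0621).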

How the data were processed

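The 16 libraries were made from polyA-selected RNA of mouse bone marrow macrophages and sequenced in paired ends, per the labels' protocols. Raw read counts per gene and FPKM were deposited by the authors, with 1 column per library, and the submitters' processing notes name HISAT2, StringTie, featureCounts, mm10 and GRCm38.p6. Versions, options and strand setting were not stated there, and the labels' protocol describes no strand-marking step, so overlapping genes on opposite strands cannot be told apart.

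From the counts, genes with about 10 or more counts in at least 4 libraries were kept (filterByExpr), libraries were scaled by TMM, and edgeR 4.0.16 (R 4.3.3) fitted 1 mean per group over all 16 libraries by robust quasi-likelihood, with Benjamini-Hochberg adjustment over all tested genes and a threshold of 0.05. The same fit was made without fibronectin library 3. There the smallest group had 3 libraries, so the filter asked for counts in at least 3 libraries and kept 15765 genes. The CPM values use TMM-scaled totals. FPKM served levels per length and an alternative test (limma 3.58.1, pseudocounts 1 and 0.1). Total counts were 27995035 to 43413650 per library. DESeq2 1.42.0, other scalings and filters, a GC offset, the replicate number as a block and leaving out each library were the alternatives.

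Named genes were the 12 protein-coding genes with the largest change in each direction among those called in both fits, with at least 1 CPM on average and no overlap, 10 fixed genes (Ccl2, Epha2, Cd4, Itgav, Spp1, Itga5, Itgb1, Itgb3, Itgb5 and Fn1), up to 4 called members per list, the smallest p of the interaction, and up to 4 genes per direction called in 1 fit only. Genes chosen otherwise are said to be. The comparison, the 45 lists and the rule were chosen with earlier results of these data known, so lists carry counts and medians only. Promoters came from RefSeq's table for GRCm38.p6, which held 96 of the 135 named genes. Results for 1 further gene are not reported here.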

Additional observations from a re-analysis of the deposited data

Results flagged for a closer look

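Within groups of 4 libraries, a library was singled out when its gap to the nearest other, over the group's range, exceeded Dixon's critical value. Of 270 groups of named genes tested, 14 held such a library. Chance gives about 1 in 20, but only for genes chosen without regard to any library. The named genes were chosen in part by their calls with and without fibronectin library 3, so these counts follow in part from the choice. Fibronectin library 3 was the distant one in 10 of the 14. It was high for Ms4a6d (379 CPM, the others 237 to 239.9), S100a8 (141 CPM, the others 42.8 to 48.0), Ngp (79.3 CPM, the others 41.8 to 45.6), Clec4n (132 CPM, the others 79.5 to 84.2), Cd9 (316 CPM, the others 192 to 204), Mcm6 (288 CPM, the others 249.6 to 253), Zfp930 (11.5 CPM, the others 3.58 to 4.48) and Kmo (2.61 CPM, the others 1.53 to 1.63). It was low for Itgb5 (199 CPM, the others 308 to 325) and Csf3r (19.9 CPM, the others 27.5 to 28.9). The same library stood apart in its share of mitochondrial counts (3.67%, the others 1.35 to 1.45%) and in its mean correlation with the other libraries (0.965, the others 0.981 to 0.983).

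In fibronectin library 1, Kdr was low (3.02 CPM, the others 4.12 to 4.34). Among the uncoated libraries, Spic was low in library 1 (2.53 CPM, the others 2.89 to 2.92), and Ramp1 (5.19 CPM, the others 3.98 to 4.14) and Tnfrsf12a (2.48 CPM, the others 2.25 to 2.26) were high in library 2.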

How the results depend on the processing

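The 876 calls under anti-ITGAV became 1873 with a GC offset, 1709 with a GC offset and the replicate block, 20 when tested against a 1.5-fold change, 251 from the 8 libraries alone, 2042 with voom and quality weights, 1601 with DESeq2 and 510 with limma on log2(FPKM + 1) without a filter. Leaving out 1 library gave 428 to 990 calls. Without fibronectin library 3, the 972 calls became 579 with the replicate block, 1920 with a GC offset, 1613 with both, 23 against a 1.5-fold change and 1997 with voom. Under IgG, the 586 calls became 360 with the replicate block, 1605 with a GC offset, 1402 with both, 15 against a 1.5-fold change, 1858 with voom, 1040 with DESeq2 and 253 to 1325 on leaving out 1 library. DESeq2 gave 1 interaction call. The replicate numbers pair no libraries by the labels, and same-numbered libraries of the 2 coatings had correlations of -0.01, -0.004, -0.09 and -0.10 in their deviations. The block gave 600 calls with all libraries, and 557 of the 718 genes passed in it. Of the 718, 713 passed with DESeq2 and 718 with voom, but 244 in the 8 libraries alone, against 640 in the 7 without fibronectin library 3. Among the 109 named genes called with all libraries, 72 kept the call whichever library was left out. Many of the 109 were chosen among genes that also passed without fibronectin library 3, so this share does not stand for all 876 calls. With uncoated library 2 left out, 428 of all tested genes passed. The sign turned for Itgb1 with a GC offset (-0.017) and with the offset and the block (-0.017), and for S100a8 without uncoated library 2 (0.035) and without fibronectin library 1, 2 or 4 (0.12, 0.14 and 0.15). Neither gene passed there, while S100a8 without fibronectin library 3 was at -0.64 and passed. For these shifts in counts and signs the cause was not tested. Genes near 1 CPM rest on few counts.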

Other observations

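Genes of ribosome assembly and DNA replication, grouped after their values were seen, held rises and no falls among the genes that passed with and without fibronectin library 3. Of 39 tested genes with nucleolar and ribosome assembly symbols 7 rose (17.9%), against 2.22% of all genes. Their median log2 change was 0.23, or 0.26 under IgG. Nop56, a core protein of the particles that methylate ribosomal RNA, stood at 59.5, 57.6, 69.1 and 64.9 CPM on fibronectin and 42.4, 36.01, 37.5 and 33.9 CPM uncoated (0.75 ± 0.10, edgeR adjusted p = 0.000374). Nop58 (0.91 ± 0.19, adjusted p = 0.00832) and Gnl3, nucleostemin (0.87 ± 0.18, adjusted p = 0.00888), rose as well. So did Rpf2, which assembles the large subunit but is not among the 39 genes (0.91 ± 0.19, adjusted p = 0.00940). Of 45 tested replication factors 8 rose (17.8%), against 2.22% of all genes, with a median of 0.26, or 0.27 under IgG. Cdc6, a loader of the replicative helicase, stood at 26.2, 26.7, 41.3 and 32.2 CPM on fibronectin and 20.6, 15.4, 18.7 and 16.04 CPM uncoated (0.84 ± 0.15, adjusted p = 0.00325), and the checkpoint kinase gene Chek1 rose by 0.95 ± 0.21 (adjusted p = 0.0124). Of 233 tested solute carriers 16 rose and 10 fell, against 2.22% and 2.43% of all genes, with a median of 0.02.

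The VEGF receptor genes Kdr and Flt1 were higher on fibronectin at low levels. Kdr stood at 3.02, 4.34, 4.12 and 4.20 CPM on fibronectin and 2.44, 1.26, 2.77 and 1.73 CPM uncoated (0.93 ± 0.23, adjusted p = 0.0263), a call that ended without uncoated libraries 2 or 4 or fibronectin libraries 2 or 4 (adjusted p = 0.0511 to 0.0909). Flt1 stood at 2.77, 3.47, 2.29 and 3.09 CPM on fibronectin and 1.07, 1.16, 1.74 and 1.78 CPM uncoated (1.00 ± 0.24, adjusted p = 0.0203), a call that ended without uncoated libraries 1 or 2 or fibronectin libraries 2 or 4 (adjusted p = 0.0511 to 0.0777). Tmem176b, a membrane protein of myeloid cells, stood at 8.72, 10.7, 9.63 and 8.05 CPM on fibronectin and 16.5, 15.4, 17.1 and 16.8 CPM uncoated and fell by 0.82 (adjusted p = 0.00328). Its partner Tmem176a fell by 0.98 (adjusted p = 0.00407), and since the genes share 578 bases on opposite strands their counts cannot be told apart there.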
